A study of Mus musculus with 7 samples.

Results

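Creatine kinases, adenylate kinases and the creatine transporter move high-energy phosphate through the heart muscle cell. They are described here through all probe sets of 7 genes: Ckm, Ckmt2, Ckb, Ckmt1, Ak1, Ak3 and Slc6a8. The deposited table held 12394 gene names, 1 of them the blank shared by probe sets without a single gene. It held 12 probe sets of the 7 genes, out of 22626 probe sets that are not controls. The genes were chosen by earlier results on these same arrays, namely their intensities in knockout and wild type, so their group differences are given as descriptions with standard errors and no test. RNA came from left ventricles of male mice at 21 months of age, with 1 array of the MOE430A design per mouse. The labels name 3 mice lacking both copies of eNOS, the endothelial nitric oxide synthase encoded by Nos3, and 4 wild-type mice. Values are given in the order M4, M10 and M140 for the knockout arrays and M23, M125, M128 and M158 for the wild type, by mouse number. The labels used here give neither strain nor allele, and a keyword names exercise without tying it to any mouse.

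Creatine kinase moves a phosphate group between ATP and creatine in either direction, so that phosphocreatine can carry energy from mitochondria to the myofibrils and buffer ATP during contraction. Ckm encodes the muscle enzyme of the cytosol and Ckb the brain enzyme, which is also made in heart, smooth muscle and other tissues. Ckmt2 encodes the sarcomeric mitochondrial enzyme and Ckmt1 the ubiquitous mitochondrial one. Adenylate kinases pass phosphate among ATP, ADP and AMP, with Ak1 in the cytosol and Ak3, which uses GTP, in the mitochondrial matrix. Slc6a8 is the transporter through which muscle takes up creatine made elsewhere in the body.

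The deposited intensities had a median of 671 to 699 per array and stopped at an upper limit of 44145 to 45552 that 51 to 104 probe sets reached on each array. The experiment sheets give 4 hybridization days, each with its own chip lot. Both groups met only on day 1, with M140 of the knockout and M128 of the wild type. Wild-type M125 was run alone on day 2, the knockout pair M4 and M10 on day 3 and the wild-type pair M23 and M158 on day 4. All 8 ventricular muscle markers passed the filter on dim values described below, and 7 of them had reached the limit on 1 array or more. The atrial markers summed to 34816 for M10 of the knockout and 42299 for M125 of the wild type, against 2681 to 12421 on the other arrays. The Nos3 probe set read 1231 ± 157.9 (SD, n = 3) on arrays labelled knockout and 971 ± 170 (SD, n = 4) on wild-type arrays. The targeted transcript was not lower in the knockout, and no source used here places this probe set inside or outside the disrupted region. Knockout below means the arrays so labelled.

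Of the 12 probe sets, 8 passed the filter on dim values, which asked for a value above the 40th percentile of the array (514 to 542) on at least 3 arrays. They covered 6 of the 7 genes. The 4 that did not pass were both probe sets of Ckmt1, 1 of Ak1 and 1 of Ak3. The probe set of Ckmt2 was at the upper limit on all 7 arrays, which left 7 probe sets with a measurable difference. The knockout and wild-type arrays overlapped for every one of these 7. Over all 13836 tested probe sets the groups did not overlap for 9.3%, and limma called 0 (0%) at an adjusted p of 0.05, while 1636 (11.8%) had an unadjusted p under 0.05. The spread between arrays includes mouse and hybridization day together.

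**Figure D1:**
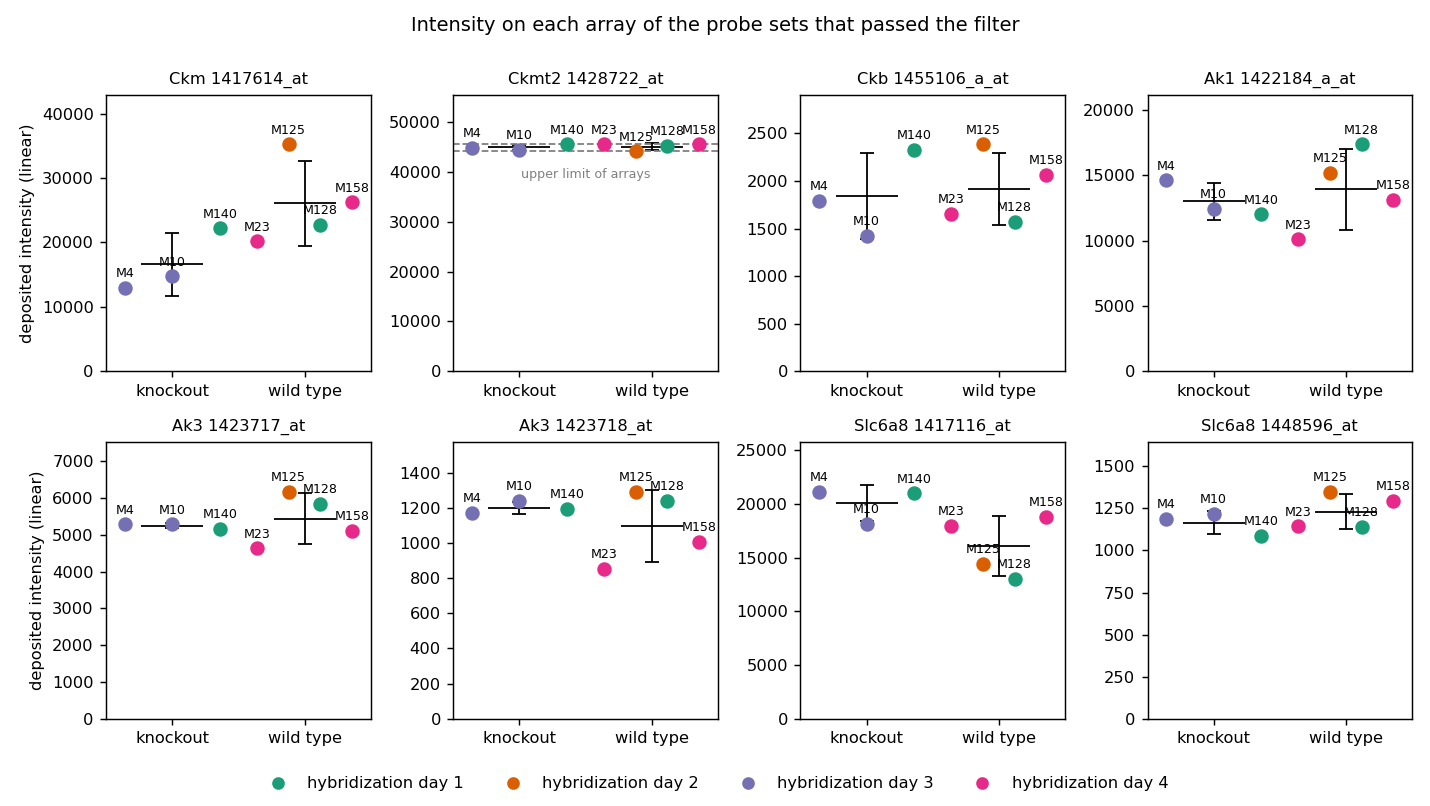
Each panel plots the deposited intensity (linear axis from 0) of a probe set that passed the filter, with a point per array labelled by mouse and coloured by hybridization day; the bar is the group mean and the whisker 1 SD. Ckm was lowest on knockout M4 and M10 (12926 and 14701) and highest on wild-type M125 (35211), and Ckmt2 lies between the dashed lines of the lowest and highest upper limit on every array.

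Ckm, Ckb and Ckmt2 each had a single annotated transcription start in RefSeq (GRCm38.p6), and the 160 bases before it are shown because these are the muscle, brain and mitochondrial forms whose values are compared next. They are given 5′ to 3′ on the gene's strand, with capitals for the E-box CANNTG and for TATAAA or TATATA, searched on both strands. The Ckm stretch is chr7:19410934-19411093 on the plus strand, that of Ckb is chr12:111672339-111672498 on the minus strand and that of Ckmt2 is chr13:91876886-91877045 on the minus strand.
Ckm: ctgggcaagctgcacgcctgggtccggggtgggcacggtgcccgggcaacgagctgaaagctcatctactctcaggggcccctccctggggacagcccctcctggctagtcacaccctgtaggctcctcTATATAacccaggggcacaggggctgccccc
Ckb: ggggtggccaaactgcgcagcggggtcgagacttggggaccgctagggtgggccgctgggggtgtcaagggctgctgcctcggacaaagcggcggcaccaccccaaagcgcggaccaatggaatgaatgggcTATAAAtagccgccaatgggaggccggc
Ckmt2: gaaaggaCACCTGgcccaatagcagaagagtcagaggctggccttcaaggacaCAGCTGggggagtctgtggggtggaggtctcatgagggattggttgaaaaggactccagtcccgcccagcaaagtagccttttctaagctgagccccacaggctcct
Over the full 250 bases before the start, Ckmt2 held 4 matches to CANNTG, Ckm 1 and Ckb 0, and 66.2% of 32851 promoters of that length held at least 1. Ckb held 1 TATAAA (12.4% of promoters), which overlaps a match to the MEF2 motif (0.508% of promoters), and Ckm held 1 TATATA (5.25% of promoters). These are letter matches only, and the arrays did not measure factor binding. RefSeq promoters were matched for 6 of the 7 genes.

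The muscle form Ckm (1417614_at) had the largest spread of the genes. Its intensity was 12926, 14701 and 22162 on the knockout arrays and 20144, 35211, 22738 and 26191 on the wild-type arrays. The knockout arrays of day 3 were the lowest, knockout M140 lay above wild-type M23, and the highest array was 2.72 times the lowest. The group means were 16596 ± 4901 (SD, n = 3) and 26071 ± 6577 (SD, n = 4). On the log2(intensity + 16) scale, used for all differences here, the knockout mean was lower by a difference of -0.66 ± 0.23 (SE), or 0.634 of the wild type. Within day 1, the only day with both groups, knockout M140 minus wild-type M128 was -0.037. With day as a random block the difference was -0.57. Skeletal muscle markers, of a tissue rich in Ckm, summed to 6077 to 6705 on knockout and 6173 to 6818 on wild-type arrays; 5 of 10 passed the filter, and Myh1, Myh4, Tnnt3, Tnnc2 and Pvalb did not. Red cell markers summed to 9442 and 10600 on knockout M4 and M10, the arrays lowest in Ckm, and to 4113 to 5483 on the other arrays. Alas2 gave most of the sum on M4 and M10, with 6236 and 6484 against 1649 to 2598 on the other arrays. Hbb-b2 and Slc4a1 were also highest on M4 and M10, while Hba-a1 was highest on wild-type M125 (326). Of the 4 markers named on the array 2 passed the filter, and Hba-a1 and Slc4a1 did not. The part of red cells in the Ckm values was not tested. The low values of M4 and M10 and their hybridization day cannot be told apart, since day 3 held no wild-type array.

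The brain form Ckb (1455106_a_at) read 1790, 1421 and 2324 on the knockout arrays and 1651, 2385, 1572 and 2068 on the wild-type arrays. The groups lay over each other, with means of 1845 ± 454 (SD, n = 3) and 1919 ± 379 (SD, n = 4). The difference of -0.06 ± 0.21 (SE) was smaller than its standard error, and its sign turned to 0.11 without knockout M10, 0.05 without wild-type M125 and 0.03 with day as a random block. Within day 1 it was 0.56. Nerve and glia markers, whose cells make much Ckb, summed to 3702 to 4040 on knockout arrays and 3718 to 3991 on wild-type arrays; 3 of the 7 named on the array passed the filter, and Snap25, Nefl, Nefm and S100b did not. Probe sets differ in brightness for reasons other than transcript number, so the levels of Ckb and Ckm were not set against each other.

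The sarcomeric mitochondrial form Ckmt2 (1428722_at) read 44868, 44424 and 45540 on the knockout arrays and 45552, 44145, 45291 and 45552 on the wild-type arrays. Each of these values is the highest that its array holds. They follow the limit of the array and give neither a fold nor an order of the mice, and a change of Ckmt2 above that limit would not be visible. The ubiquitous mitochondrial form Ckmt1 lay at the other end of the scale. Its brighter probe set (1432418_a_at) read 300.1 to 356 on knockout arrays and 306 to 321 on wild-type arrays, all below the 40th percentile. Its dimmer one (1417089_a_at) read 227, 222 and 261 on the knockout arrays and 207 to 214 on wild-type arrays, so that the knockout arrays lay above. These values lie near the low end of the scale. Of the 8790 probe sets that did not pass the filter, 1.43% had all knockout arrays above all wild-type arrays, and the brighter probe set of the same gene overlapped. Neither mitochondrial form therefore gave a measurable group difference, Ckmt2 for its brightness and Ckmt1 for its dimness.

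The creatine transporter Slc6a8 leaned the opposite way from Ckm on its bright probe set. Probe set 1417116_at read 21128, 18165 and 20994 on the knockout arrays and 17998, 14440, 13046 and 18809 on the wild-type arrays. Knockout M10 lay below wild-type M158, and the other knockout arrays lay above every wild-type array. The knockout mean was 20096 ± 1674 (SD, n = 3) and the wild-type mean 16073 ± 2770 (SD, n = 4), which is a difference of 0.33 ± 0.14 (SE), and 0.69 within day 1. The second probe set, 1448596_at, which the platform table lists under the same source sequence, did not follow. It read 1186, 1220 and 1087 on the knockout arrays in the same order and 1143, 1348, 1140 and 1296 on the wild-type arrays, a log2 difference of -0.08 ± 0.09 (SE). The probe sets of this gene disagree, and within day 1 the second one differed by -0.067.

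The summed intensity of smooth muscle markers, led by Acta2, the smooth muscle actin, ran in nearly the same order of arrays as 1417116_at of Slc6a8. It was 16230, 12983 and 16072 on the knockout arrays and 15229, 11600, 9064 and 15299 on the wild-type arrays. Of the 6 markers 5 passed the filter, Cnn1 did not, and Acta2 gave most of the sum with 5312 to 11937. The name of the Acta2 probe set ends in _s_at, and a probe set of this kind can read related transcripts. The part of related transcripts in the Acta2 values was not tested. For the sum and for Slc6a8 the lowest arrays were wild-type M128 and M125 and the highest knockout M4 and M140. The other markers that passed did not share that order: Smtn was highest on wild-type M125 (1701), Myh11 on knockout M10 (1021), Lmod1 was lowest on knockout M4 (690.1), and Tagln on knockout M4 (1171) was above wild-type M128 alone. Among the marker lists this one is named here for the order of its sum, which 1448596_at of Slc6a8, highest on wild-type M125 (1348), did not share. The part of smooth muscle in the Slc6a8 values was not tested. In RNA of whole ventricle, fewer cells of a type and less RNA per cell cannot be told apart.

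**Figure D2:**
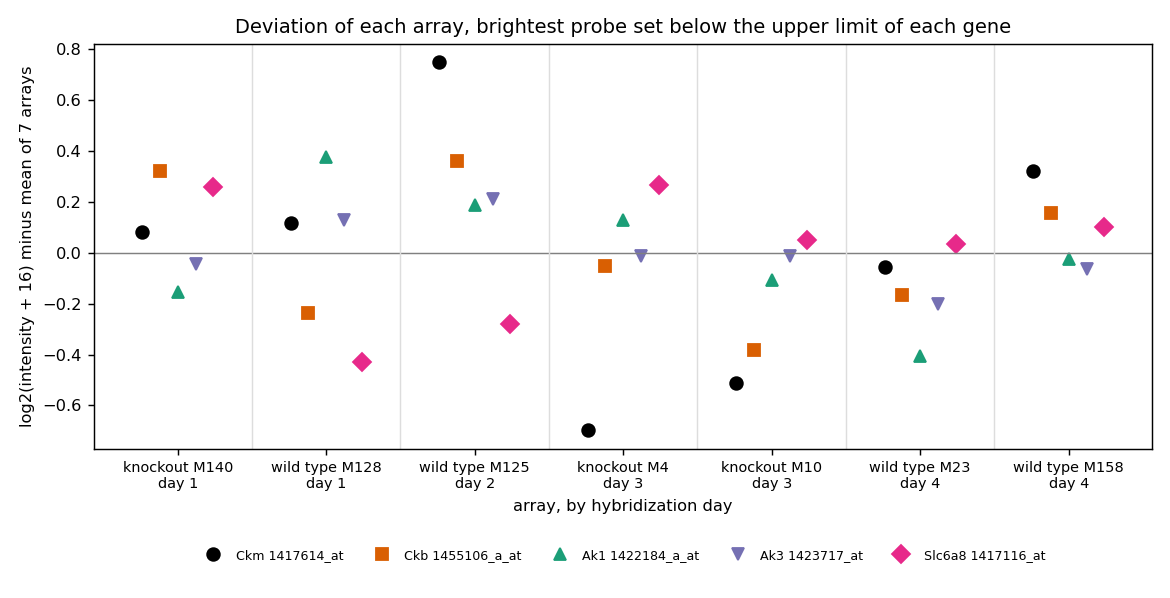
Points show, for each array ordered by hybridization day, log2(intensity + 16) minus the mean over the 7 arrays for the brightest probe set below the upper limit of 5 genes. Ckm runs from -0.70 on knockout M4 to 0.75 on wild-type M125, and on day 1 Slc6a8 is at 0.26 on knockout M140 and -0.43 on wild-type M128 while Ckm is at 0.080 and 0.12.

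The cytosolic adenylate kinase Ak1 (1422184_a_at) read 14620, 12421 and 12012 on the knockout arrays and 10089, 15208, 17376 and 13135 on the wild-type arrays. The knockout arrays fell inside the wild-type range, with means of 13018 ± 1403 (SD, n = 3) and 13952 ± 3103 (SD, n = 4) and a log2 difference of -0.08 ± 0.18 (SE). Within day 1 it was -0.53. The small difference turned to 0.038 without wild-type M128 and to 0.0051 without knockout M10 and wild-type M125 together. Ak1 is abundant in red blood cells, and red cell markers summed to 5483 to 10600 on knockout arrays against 4113 to 4915 on wild-type arrays; 2 of the 4 named on the array passed the filter, and Hba-a1 and Slc4a1 did not. The sum was 9442, 10600 and 5483 on the knockout arrays, with Alas2 at 6236, 6484 and 2598 of it. The part of red cells in the Ak1 values was not tested. The other probe set, 1423988_at, read 371 to 499 on knockout arrays and 457 to 497 on wild-type arrays, all below the 40th percentile.

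By its brightest probe set, the matrix enzyme Ak3 varied least over the 7 arrays among the 5 genes measured below the limit. Probe set 1423717_at read 5286, 5286 and 5169 on the knockout arrays and 4633, 6171, 5838 and 5107 on the wild-type arrays. Group means were 5247 ± 67.4 (SD, n = 3) and 5437 ± 696 (SD, n = 4), with a log2 difference of -0.042 ± 0.14 (SE). Its neighbour 1423718_at, listed under the same source sequence, read 1172, 1240 and 1197 on the knockout arrays and 854, 1293, 1243 and 1005 on the wild-type arrays, a difference of 0.15 ± 0.15 (SE). That difference was 0.035 without wild-type M23, 0.23 without wild-type M125 and -0.053 within day 1. Both probe sets were lowest on wild-type M23 and highest on wild-type M125, and in both the 3 knockout arrays lay inside the wild-type range. The third probe set, 1432436_a_at, read 386 to 475 on knockout arrays and 316 to 386 on wild-type arrays, below the 40th percentile throughout.

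Set side by side by the brightest probe set of each gene, the cytosolic muscle form had a log2 difference of -0.66 and the brain form -0.06. The cytosolic adenylate kinase had -0.08, the matrix adenylate kinase -0.042 and the transporter 0.33. On these probe sets the 5 genes did not move as a block across arrays. Wild-type M125 was the highest array for Ckm, Ckb and Ak3 but the second lowest for Slc6a8 1417116_at. Wild-type M128 was the lowest for Slc6a8 1417116_at and the highest for Ak1. The other probe set of Slc6a8, 1448596_at, differed by -0.08 and was highest on wild-type M125, like Ckm, Ckb and Ak3. Leaving out knockout M10 and wild-type M125, the arrays with most atrial transcript, gave -0.44 for Ckm, 0.36 for Slc6a8 and 0.22 for Ckb. The Ckm profile was most like those of Prrc2a, Pxmp4 and Txn2, with Pearson correlations of 0.988, 0.984 and 0.977 over 7 arrays. These were the highest among 13828 tested probe sets outside the member genes, including those without a single gene name. They are the best of many comparisons on few arrays and are given without a p.

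The other genes of the pathway were taken from a list of 36 genes of creatine synthesis, nucleotide kinases, carriers and adenine nucleotide turnover. Of these 27 were named on the array and 23 were tested. At an adjusted p of 0.05 over all tested probe sets limma called 0% of 8870 tested genes. Probe sets without a single gene name count together as 1 of these. Of the 23 limma called 0. By the brightest tested probe set of each gene, 1 was lower and 0 were higher at an unadjusted p under 0.05, against 5.4% and 6.76% of tested genes. The groups overlapped for all 23, whereas 10.2% of tested genes did not overlap. The median log2 difference was -0.0074, against -0.0027 over all tested genes, with a range of -0.60 to 0.41, and 3 of the 23 were at the limit on 1 array or more. That median is the value of Nme2, at the limit on 3 arrays, and Slc25a4 was at the limit on all 7.

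By the brightest tested probe set of each gene, the one with an unadjusted p under 0.05 was Ak4, a mitochondrial matrix adenylate kinase. Its brightest probe set, 1450387_s_at, read 1122, 896 and 1243 on the knockout arrays and 2332, 1146, 1451 and 1854 on the wild-type arrays. The difference was -0.60 ± 0.24 (SE; limma adjusted p = 0.389), and -0.22 within day 1. Wild-type M125 lay inside the knockout range, and a probe set of the kind of 1450387_s_at can read related transcripts. The other tested probe sets of Ak4, 1421831_at and 1421830_at, differed by 0.07 and -0.07, and 1421829_at did not pass the filter. Adk, the adenosine kinase, differed by -0.27 ± 0.13 (limma adjusted p = 0.461) on its brightest probe set, 1438292_x_at, and by -0.09 within day 1. Its other tested probe sets, 1416319_at and 1421767_at, differed by -0.12 ± 0.18 and -0.08 ± 0.13. In the other direction Adssl1, the muscle enzyme that opens AMP synthesis from IMP, differed by 0.41 ± 0.22 (adjusted p = 0.520), and 0.89 within day 1.

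The ATP/ADP carrier of heart mitochondria Slc25a4 was at the upper limit on all 7 arrays on its 2 brightest probe sets and gives no fold there. Its probe set 1434897_a_at, below the limit, differed by -0.06 ± 0.11, and the dimmest tested one, 1424563_at, by -0.27 ± 0.12 (limma adjusted p of 0.892 and 0.409; unadjusted p of 0.605 and 0.0453). The carrier Slc25a5 and the outer membrane channel Vdac2, which pass adenine nucleotides out of mitochondria, differed by 0.20 ± 0.10 and 0.18 ± 0.09 (limma adjusted p of 0.462 and 0.498). Within day 1 they differed by 0.49 and 0.43, and wild-type M128 was the lowest array for both (20971 and 19237.5). The other tested probe sets of Slc25a5 differed by 0.03 (1438545_at) to 0.33 (1438360_x_at). The phosphate carrier Slc25a3, at the limit on 2 knockout arrays, differed by 0.08, a value that the limit makes smaller. Adss, Nme6, Nt5e and Aprt differed by 0.18, -0.21, 0.11 and -0.09 (adjusted p between 0.586 and 0.839). Gatm and Gamt, the enzymes of creatine synthesis, which takes place mainly in kidney and liver, read 237 to 389 and 264 to 328 and did not pass the filter. Of Nt5c2, an IMP-preferring nucleotidase, the brightest probe set differed by 0.10. The dimmer 1425933_a_at, singled out after its values were seen, differed by 0.73 ± 0.21 (limma adjusted p = 0.285). Its groups overlapped, with 868 on knockout M10 and 879 on wild-type M158. Probe set 1448614_at of the same gene did not pass the filter.

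**Figure D3:**
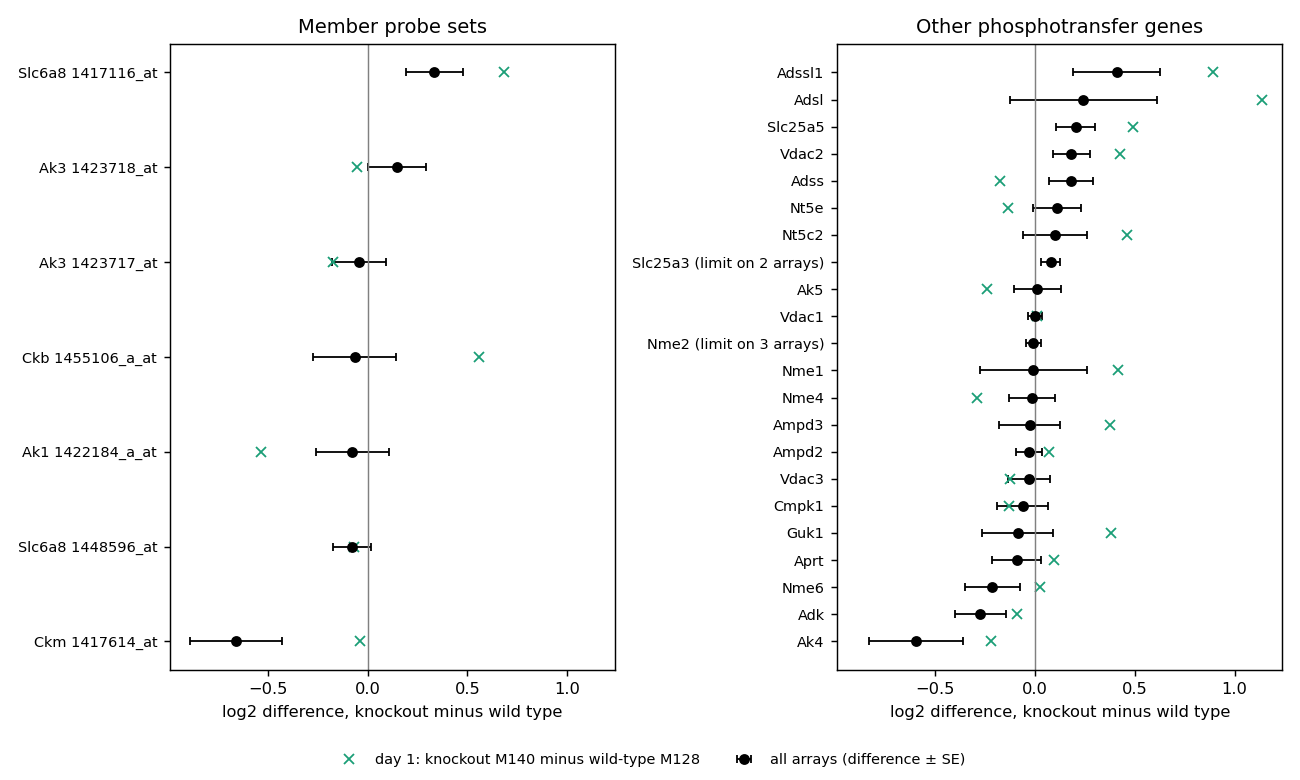
Log2 differences of knockout minus wild type, with SE bars, for member probe sets (left) and other pathway genes by their brightest tested probe set (right); crosses give knockout M140 minus wild-type M128 on day 1, and probe sets at the upper limit on all 7 arrays are left out. Ckm at -0.66 and Ak4 at -0.60 lie farthest to the left, and Slc6a8 1417116_at at 0.33 and Adssl1 at 0.41 farthest to the right. Their crosses lie at -0.037 for Ckm, -0.22 for Ak4, 0.69 for Slc6a8 1417116_at and 0.89 for Adssl1.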

How the data were processed

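Left ventricular RNA of 7 mice was measured on single-colour arrays. The authors deposited linear intensity values per probe set; no source used here names the software or scaling behind them. From the values, arrays had nearly the same level, and no background subtraction was visible (lowest value 86.5 to 92.3). Each array had an upper limit, so that differences of probe sets at that limit are understated. Hybridization days were read from the deposited experiment sheets, which hold other information and no measurement, per the file headers. Controls (64) were left out; a platform table gave 20380 probe sets exactly 1 gene, 691 several and 1555 none. Of the former, 20351 matched the GRCm38.p6 gene table, and 29 kept the platform's symbol.

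Values were taken as log2(intensity + 16) with no further scaling. Knockout and wild type were compared over all 13836 probe sets above the 40th percentile on at least 3 arrays. The fit used limma 3.58.1 under R 4.3.3 (lmFit, then two-sided eBayes with trend) and Benjamini-Hochberg adjustment. It was run on simulated data without any hybridization-day effect, which cannot show how it behaves where day and group are mixed as here. For probe sets that did not pass, only values are given. Pathway genes were read by their brightest tested probe set. Arrays correlated at 0.973 to 0.992 on the log2 scale and no pair shared more than 7.18% equal values. Of the probe sets used, 49.9% held exactly the same value on more than 1 array. The labels give 1 array per mouse and no litter or cage, and p-values measure the spread between these arrays. The members and lists were chosen with earlier results of these data known. Named were all member probe sets, the 10 pathway genes with the smallest unadjusted p, Slc25a4, Gatm, Gamt and Ak4 (another gene of that rule is not reported here), the checks Nos3 and Myl7 (within the atrial sum), and the 3 genes most like the most variable member.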

Additional observations from a re-analysis of the deposited data

Results flagged for a closer look

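Among the 11 member probe sets below the upper limit, 2 had a wild-type array far from the other 3 wild-type arrays. Chance flags about 1 in 20 groups of this size. Probe set 1432418_a_at of Ckmt1 read 321 on wild-type M125 and 306 on each of the other 3, and 1423988_at of Ak1 read 497 on wild-type M23 and 457 on each of the other 3. Both are dim, and the equal values on 3 arrays make the gap the whole range.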

How the results depend on the processing

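No paired analysis was run because the labels match no knockout mouse to a wild-type mouse, and both groups met only on day 1. The count of 0 called probe sets became 1 with the 60th percentile filter, 1 with day as a fixed block, 619 with array weights, 21 at an adjusted p under 0.10 and 1636 at an unadjusted p under 0.05. Without single arrays it ran from 0 to 74, with 74 without knockout M10 and 27 without knockout M140. The cause of these changes was not tested. The pathway count stayed at 0 under every alternative run except an unadjusted p under 0.05, which gave 1.

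With day as a fixed block the group difference rests on knockout M140 and wild-type M128 alone. It was then -0.037 for Ckm, 0.56 for Ckb, -0.53 for Ak1 and 0.69 for Slc6a8 1417116_at. Other offsets (1 and 64), quantile normalization, the filters and day as a random block moved no member difference by more than 1 SD between arrays. Without single arrays Ckm ran from -0.89 to -0.50, Slc6a8 from 0.24 to 0.42, Ckb from -0.24 to 0.11, Ak1 from -0.22 to 0.038, Ak3 1423717_at from -0.12 to 0.021 and Ak3 1423718_at from 0.035 to 0.23. The random block and the fit without knockout M10 and wild-type M125 were chosen after seeing the data. The upper limit hides any change of Ckmt2, and signal near background any change of Ckmt1; 3 and 4 arrays limit the precision of the rest.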
